A study of Homo sapiens with 23 samples.

Results

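The genes described here are 10 structural genes of the basement membrane, chosen by name. They are 6 laminin chains (*LAMA1*, *LAMA4*, *LAMA5*, *LAMB1*, *LAMB2* and *LAMC1*), both nidogens (*NID1* and *NID2*) and the heparan sulfate proteoglycans perlecan (*HSPG2*) and agrin (*AGRN*). All 10 were found among the 61806 genes counted in the first 17 libraries and among the 42901 counted in the 6 deep libraries. The study measured RNA in A549, an established human lung carcinoma line with epithelial features, after depletion of THUMPD3, a methyltransferase that places N2-methylguanosine on tRNA. The siRNA siD3 #3 (group siTHUMPD3, n = 3) was compared with siControl (n = 2) on day 5. The inducible shRNAs shD3 #1 and shD3 #4 (n = 3 each) were compared with sh1Control and sh4Control (n = 3 each) on day 6, and deep libraries of shD3 #1 with deep sh1Control (n = 3 each). The shRNAs were carried by a lentiviral vector switched on with doxycycline, in cells selected with puromycin and not described as single clones. The methods call the reference cells untreated and the labels give them the genotype WT, so what the shRNA controls carry is not stated beyond their names. Nor is it stated whether the deep libraries came from the same cultures as the first. Each group is thus a population of 1 cell line.

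The basement membrane is the sheet of matrix on which epithelial cells rest. Laminins are trimers of an α, a β and a γ chain that assemble outside the cell into a network, and that network binds integrins and dystroglycan at the cell surface. Nidogens bind the laminin γ1 chain and link it to collagen IV, while perlecan and agrin carry heparan sulfate chains that hold growth factors and tie the laminin and collagen networks together. In airway and alveolar epithelium the α5 chain is the main laminin α chain beneath the cells, and the β2 chain can take the place of β1 in the trimer.

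Promoter sequences are shown for 3 members picked for their different results: *HSPG2*, which rose in 3 of the 4 comparisons (shD3 #1, its deep set and siD3 #3), *LAMA5*, which was not called in any, and *LAMC1*, whose difference between the shRNAs was called. Each is the 150 bases before the RefSeq start on GRCh38.p14, written 5′ to 3′ on the strand of the gene. Capitals mark the GC box GGGCGG or its complement CCGCCC, a motif that Sp family factors bind. The windows are chr1:21937311-21937460 on the minus strand for *HSPG2*, chr20:62367313-62367462 on the minus strand for *LAMA5* and chr1:183023270-183023419 on the plus strand for *LAMC1*.
HSPG2: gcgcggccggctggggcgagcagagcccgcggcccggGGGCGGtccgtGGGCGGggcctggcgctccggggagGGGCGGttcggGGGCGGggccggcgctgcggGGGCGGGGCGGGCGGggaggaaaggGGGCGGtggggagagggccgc
LAMA5: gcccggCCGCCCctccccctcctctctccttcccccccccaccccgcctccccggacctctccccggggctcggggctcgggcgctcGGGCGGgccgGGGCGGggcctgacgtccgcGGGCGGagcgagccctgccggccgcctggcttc
LAMC1: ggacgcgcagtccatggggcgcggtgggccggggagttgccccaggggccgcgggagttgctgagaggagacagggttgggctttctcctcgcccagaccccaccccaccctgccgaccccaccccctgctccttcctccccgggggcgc
Of the 10 members 8 had a promoter in the RefSeq table. The *HSPG2* window held 8 GC boxes, overlapping ones included, and 87.3% of its bases were G or C. The *LAMA5* window held 3 on its own strand and 1 on the other, at 84.0% GC, and the *LAMC1* window held 0 at 74.7% GC. The window of *LAMA4*, which was called in 2 comparisons, held 0, and those of *LAMB1* and *NID2*, which were not called in any comparison, held 2 each. At least 1 GC box stood in the windows of 5 of the 8 members and in 36.8% of the 35116 promoters of the table, whose median GC content was 60.0%.

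Total counts ranged from 9854294 to 22101059 in the first libraries and from 27285889 to 59974740 in the deep ones, and shD3#1 replicate 3 was the shallowest. THUMPD3 mRNA, the target, stood at 51.3% of the control mean in shD3 #1, 31.4% in shD3 #4, 17.1% in siD3 #3 and 49.6% in deep shD3 #1, and no knockdown library overlapped a control. The 5 epithelial markers (*KRT8*, *KRT18*, *KRT19*, *CDH1*, *EPCAM*) were present throughout, while the alveolar markers *SFTPC*, *SFTPB* and *NKX2-1* were under 1 cpm (counts scaled to library size in units of 1e6) in every library. The epithelial sum was 4547 to 4777 cpm in sh1Control and 5519 to 5699 cpm in shD3#1, and 5020 to 5236 cpm in sh4Control and 3908 to 4291 cpm in shD3#4. The keratins *KRT8* and *KRT18* set that sum, and *CDH1*, the epithelial cadherin, went the other way, from 113 to 126 cpm to 39.7 to 48.5 cpm in shD3 #1 and from 100.2 to 121 cpm to 132 to 134 cpm in shD3 #4. *KRT19*, another keratin, also rose in shD3 #4, from 19.7 to 21.7 cpm to 23.1 to 25.7 cpm. In siD3 #3 the epithelial sums overlapped, at 3503 to 4542 cpm in siControl and 2367 to 4967 cpm in siTHUMPD3. The 4 fibroblast markers summed to 3.15 to 3.51 cpm in sh4Control and 6.08 to 7.66 cpm in shD3#4. Their sums were 2.29 to 3.19 cpm in siControl and 4.10 to 5.33 cpm in siTHUMPD3, with *DCN* at no more than 1 count in any library. *LUM* was the marker that differed in shD3 #4 (0.958 to 1.84 cpm in controls and 4.13 to 5.48 cpm in the knockdown), where *THY1* and *PDGFRA* overlapped. *LUM* also lay above all controls in shD3 #1, siD3 #3 and the deep set. The sum in the deep set did not rise (2.74 to 3.49 and 2.64 to 2.96 cpm). There *THY1* fell from 2.27 to 3.00 cpm to 0.637 to 0.732 cpm. *PDGFRA* rose in that set, and *LUM* went from 0.0170 to 0.258 cpm to 1.21 to 1.76 cpm. The part of these markers in the results was not tested. Endothelial and leukocyte markers summed to at most 1.55 and 0.799 cpm. Fewer cells of a type and less RNA per cell cannot be told apart in such bulk libraries.

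Per kilobase of the canonical transcript, *LAMB1* was the most abundant member in sh1Control, at 96.9 ± 6.15 cpm per kb (SD, n = 3), followed by *LAMC1* at 46.1 ± 1.63. *LAMB2* (19.5 ± 0.650) and *AGRN* (19.5 ± 0.939) overlapped, and *LAMA5* followed at 14.8 ± 1.25 and *HSPG2* at 4.05 ± 0.0951 cpm per kb. Both nidogens were low, with 1.32 ± 0.0334 cpm per kb for *NID2* and 0.912 ± 0.0528 for *NID1*. *LAMA4*, a chain typical of vessels and other mesenchymal tissue, stood at 0.445 ± 0.0766 and *LAMA1*, the chain of embryonic basement membranes, at 0.0566 ± 0.0144. The α5, β1, β2 and γ1 chains thus stood far above α1 and α4 in these controls.

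The deep libraries, whose table was normalised separately, ranked the same genes in another order. There *LAMB1* was followed by *LAMA5* at 109 ± 2.65 cpm per kb, then by *AGRN* (76.7 ± 2.10) and *LAMC1* (72.2 ± 3.07), and *HSPG2* stood at 45.7 ± 1.98, above *LAMB2* at 26.4 ± 0.964. The level of *HSPG2* was 655 cpm in deep sh1Control and 58.1 cpm in sh1Control, a ratio of 11.3, where the median ratio over 13884 genes was 1.07. The ratio was 7.38 for *LAMA5* and 3.94 for *AGRN*, but 1.28 for *LAMB1*, 1.35 for *LAMB2* and 1.57 for *LAMC1*. The transcripts of *HSPG2*, *LAMA5* and *AGRN* had GC contents of 64.5%, 66.4% and 67.6%, and over 2066 genes of at least 60% GC the median ratio was 1.33. The part of GC content, annotation or culture in this difference was not tested, and levels are compared only within a table below.

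**Figure D1:**
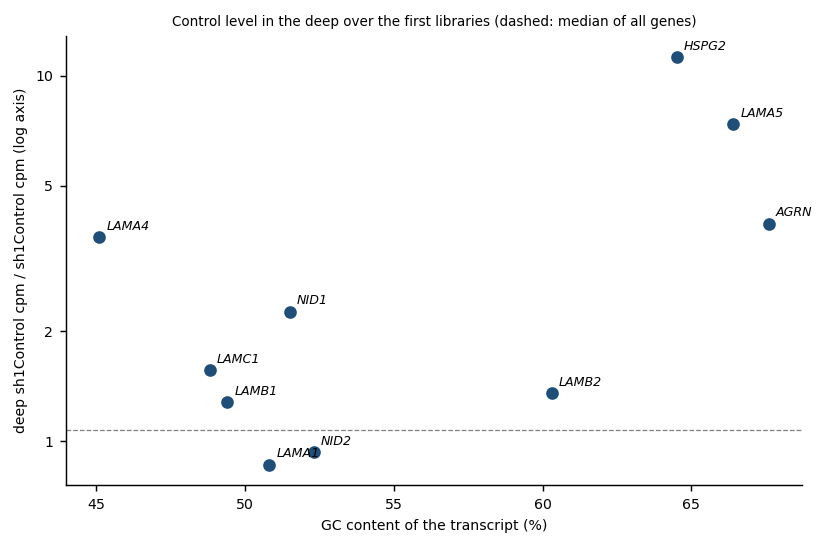
The level of each gene in deep sh1Control divided by that in sh1Control (log axis, means of 3 libraries each) against the GC content of its canonical transcript in percent; the dashed line is the median of 13884 genes, 1.07. *HSPG2* (11.3), *LAMA5* (7.38) and *AGRN* (3.94), the genes above 64% GC, lie highest, and *LAMA4* (3.63) lies next to them at 45.1% GC.

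A gene was called higher or lower where edgeR's quasi-likelihood test gave a Benjamini-Hochberg adjusted p-value under 0.05 over all genes tested and the fold change was at least 1.5 in either direction. In shD3 #1, 9 members passed the filter on low counts, 3 were called higher (*LAMA4*, *HSPG2* and *AGRN*) and 0 lower, against a background of 14.5% higher and 14.6% lower over all genes. In shD3 #4, 1 of 9 was higher (*LAMB2*) and 0 lower, beside 8.00% and 4.49% of all genes. In siD3 #3, 5 of 10 were higher (*LAMA1*, *LAMA4*, *LAMB2*, *HSPG2* and *AGRN*) and 0 lower, beside 12.5% and 9.42%. In deep shD3 #1, 1 of 10 was higher (*HSPG2*) and 1 lower (*LAMA1*), beside 15.0% and 14.1%. *LAMA1* passed the filter in siD3 #3 through the knockdown libraries and in the deep set through the controls, so that the filter favoured a difference there. Without it, 4 of 9 were higher in siD3 #3 and 0 of 9 lower in the deep set (2 of 9 lower at an unadjusted p under 0.05 with no fold threshold).

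At an unadjusted p under 0.05 and with no fold threshold, 3 members were lower in shD3 #1, 2 in shD3 #4 and 0 in siD3 #3. The share of all genes at that p is not given, so these counts have no background. The 3 of shD3 #1 (*LAMB1*, *LAMC1* and *NID2*) also had an adjusted p under 0.05 and missed only the fold threshold. In the same order of comparisons, DESeq2, run without the filter on low counts, called 1, 0 and 0 lower. That 1 was *LAMA1*, which was not among the 9 members tested with edgeR in shD3 #1. All knockdown libraries lay on one side of all controls for 7 of 9 members in shD3 #1 (4 higher, 3 lower), beside 62.0% of all genes, and for 5 of 9 in shD3 #4, beside 49.4%. This held for 8 of 10 in siD3 #3, all of them higher, beside 60.0%, and for 8 of 10 in deep shD3 #1 (5 higher, 3 lower), beside 67.1%. Without *LAMA1* it held for 7 of 9 in each of these. The median log2 fold change of the members tested was 0.21 in shD3 #1, 0.17 in shD3 #4, 0.71 in siD3 #3 and 0.15 in deep shD3 #1, and over all genes it was -0.01, 0.01, 0.03 and -0.02. Without *LAMA1* the medians of siD3 #3 and deep shD3 #1 were 0.64 and 0.23.

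**Figure D2:**
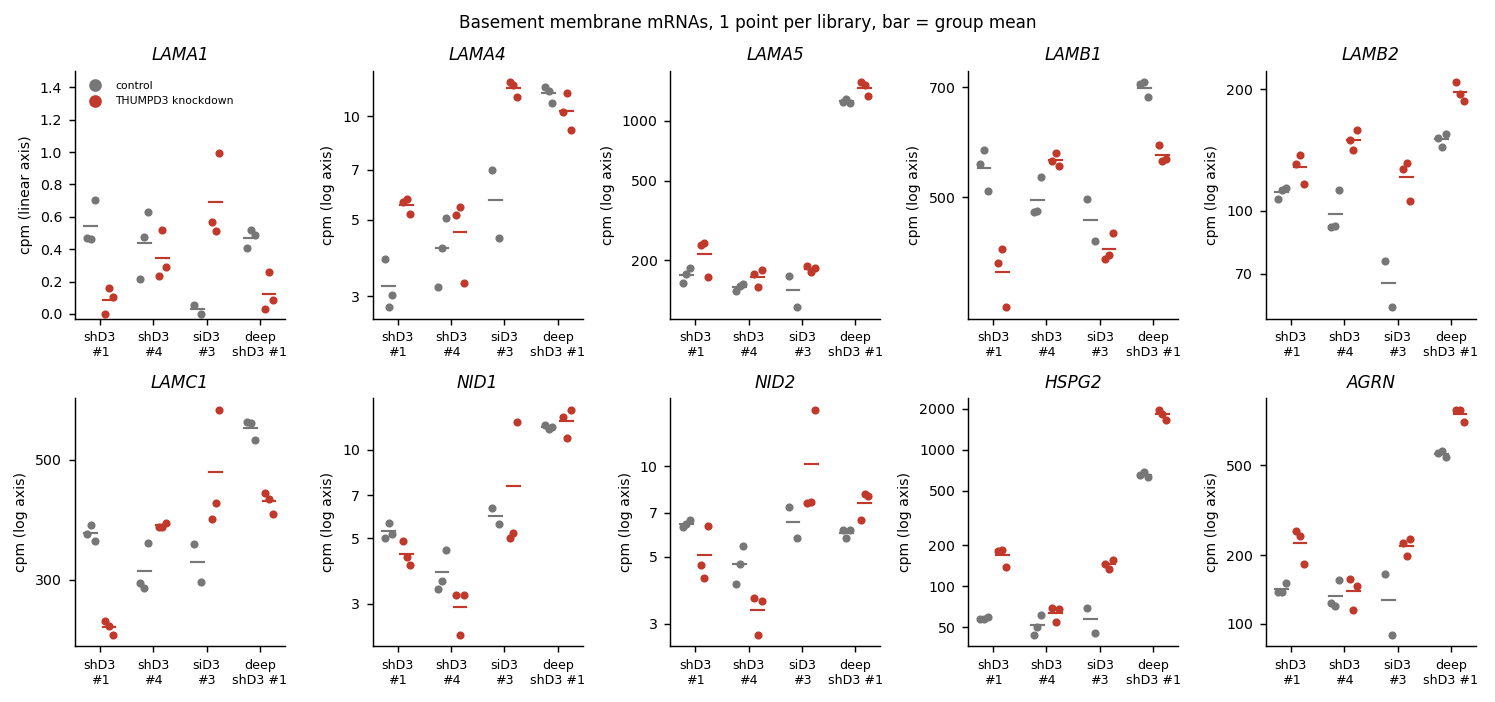
Level of each gene in each of the 23 libraries in cpm (linear axis for *LAMA1*, log axis for the others), with control libraries in grey and THUMPD3 knockdown libraries in red; bars are group means, and the deep libraries were normalised apart from the first. *HSPG2* is higher in every knockdown library of shD3 #1, siD3 #3 and deep shD3 #1 than in their controls, and siTHUMPD3 replicate 3 lies well above the other libraries of its comparison for *LAMC1*, *NID1* and *NID2*.

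*LAMA5*, the α chain with the highest level, was not called in any comparison. Its libraries held 154, 172 and 183 cpm in sh1Control and 240, 244 and 165 cpm in shD3#1, and the third knockdown library lay among the controls. The log2 fold change was 0.35 (SE 0.11, adjusted p = 0.0135, edgeR) in shD3 #1 and 0.17 (SE 0.07, adjusted p = 0.0544) in shD3 #4. It was 0.36 (SE 0.15, adjusted p = 0.0954) in siD3 #3 and 0.23 (SE 0.06, adjusted p = 0.00237) in deep shD3 #1. All 4 estimates were above 0 and under the fold threshold.

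*LAMA4* was called in shD3 #1 and in siD3 #3. It stood at 3.84, 2.78 and 3.03 cpm in sh1Control and at 5.62, 5.75 and 5.19 cpm in shD3#1, with no overlap (log2 fold change 0.78, SE 0.16, adjusted p = 5.64e-04, edgeR). In siControl it stood at 6.97 and 4.43 cpm and in siTHUMPD3 at 12.5, 12.3 and 11.4 cpm, a rise of 1.07 (SE 0.20, adjusted p = 0.00601). The deep libraries of the same shRNA gave no such rise. Deep sh1Control held 12.2, 11.8 and 10.9 cpm and deep shD3#1 10.3, 11.7 and 9.14 cpm, which overlapped (log2 fold change -0.18, SE 0.09, adjusted p = 0.113). In shD3 #4 the change was 0.17 (SE 0.18, adjusted p = 0.479). The rise of *LAMA4* in shD3 #1 thus rested on 48 to 108 counts a library and was not seen in deep libraries with 316 to 718 counts.

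*LAMA1* was near the limit of detection throughout. The siControl libraries held 1 and 0 counts and the siTHUMPD3 libraries 12, 9 and 20, so that every knockdown library was above both controls. Relative to library size the ratio was 22.9, with an exact 95% interval of 3.88 to 925 for counting error alone, and the fitted log2 fold change of 4.24 (SE 0.89, adjusted p = 0.00899, edgeR) depends on the prior count. Without siControl replicate 2 the adjusted p was 0.0668, no longer a call. With shD3 #1 the order was the other way round. Counts were 9, 8 and 14 in sh1Control and 0, 3 and 1 in shD3#1, too few to pass the filter, a ratio of 0.167 (exact interval 0.0428 to 0.472). In the deep libraries they were 24, 26 and 27 against 1, 7 and 3, a ratio of 0.250 (0.120 to 0.473), and *LAMA1* was called lower there (log2 fold change -1.97, SE 0.50, adjusted p = 0.00322). Counts in sh4Control (4, 10 and 12) and shD3#4 (5, 9 and 5) overlapped. Of its merged exon bases 10.4% are shared with a long non-coding RNA gene on the opposite strand, and which strand was counted is not stated.

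The β chains moved apart. *LAMB1*, the main β chain, stood at 555, 579 and 510 cpm in sh1Control and at 409, 427 and 357 cpm in shD3#1. All 3 knockdown libraries lay below the controls, with a log2 fold change of -0.46 (SE 0.07, adjusted p = 4.41e-05, edgeR) that was smaller than the threshold. In the deep set it was -0.30 (SE 0.04, adjusted p = 2.98e-05), from 680 to 711 cpm in controls to 559 to 586 cpm, again with no overlap. With shD3 #4 it lay on the other side, at 479, 479 and 532 cpm in sh4Control and 560, 573 and 550 cpm in shD3#4 (log2 fold change 0.18, SE 0.07, adjusted p = 0.0363). In siD3 #3 the libraries overlapped (log2 fold change -0.13, SE 0.10, adjusted p = 0.364). The difference between the effects of shD3 #4 and shD3 #1 was 0.64 (SE 0.11, adjusted p = 1.03e-04), past the thresholds, and 0.56 without shD3#1 replicate 3, under the fold threshold. DLD, a gene on the opposite strand that shares 1.61% of the exon bases, was called lower in shD3 #1 (log2 fold change -0.79), and whether its reads touch those of *LAMB1* was not tested.

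*LAMB2*, the second β chain, was above the controls in all 4 comparisons, those of shD3 #1 and its deep set included, with no overlap between libraries. It stood at 91.3, 91.7 and 113 cpm in sh4Control and at 150, 141 and 159 cpm in shD3#4, a called rise of 0.61 (SE 0.08, adjusted p = 3.92e-07, edgeR) that came to 0.55 without sh4Control replicate 1 or 2 and 0.56 without shD3#4 replicate 3, under the threshold. In siControl it held 75.3 and 57.7 cpm and in siTHUMPD3 127, 131 and 106 cpm, a rise of 0.86 (SE 0.14, adjusted p = 0.00337). In shD3 #1 the difference was small, from 107, 113 and 114 cpm to 131, 137 and 116 cpm (log2 fold change 0.21, SE 0.07, adjusted p = 0.0164). In the deep libraries it was 0.39 (SE 0.05, adjusted p = 5.32e-06), also under the fold threshold.

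The ratio of *LAMB1* to *LAMB2* within a library does not depend on how libraries are scaled. In counts per kb it was 5.22, 5.18 and 4.50 in sh1Control and 3.15, 3.14 and 3.09 in shD3#1. It was 5.28, 5.26 and 4.76 in sh4Control and 3.76, 4.09 and 3.49 in shD3#4, and it was 6.65 and 7.62 in siControl and 3.29, 3.22 and 4.27 in siTHUMPD3. The deep libraries gave 4.70, 4.97 and 4.42 in controls and 2.84, 2.89 and 3.03 in the knockdown. In all 4 comparisons, of which shD3 #1 and its deep set carry the same shRNA, each knockdown library had a lower ratio than any of its controls. On the log2 scale the mean differed by -0.67, -0.43, -1.0 and -0.68 (in the order shD3 #1, shD3 #4, siD3 #3, deep shD3 #1), and each comparison gave p = 0.1 in a two-sided exact permutation test, the smallest value that these numbers of libraries allow. With an adjustment for GC content in each library (*LAMB2* 60.3% and *LAMB1* 49.4% GC) the differences were -0.66, -0.48, -0.99 and -0.66 in that order.

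*LAMC1*, the γ chain shared by these trimers, followed *LAMB1* with both shRNAs. It stood at 364, 379 and 353 cpm in sh1Control and at 252, 247 and 237 cpm in shD3#1. The libraries did not overlap, and the log2 fold change of -0.58 (SE 0.06, adjusted p = 3.80e-07, edgeR) missed the fold threshold by less than its SE. The deep set gave -0.45 (SE 0.05, adjusted p = 1.29e-06), from 545 to 588 cpm in controls to 398 to 435 cpm. With shD3 #4 it was 0.28 (SE 0.07, adjusted p = 0.00268), from 296, 289 and 351 cpm to 376, 376 and 382 cpm, so that the 2 shRNAs lay on opposite sides of their controls with no overlap in either. The difference between those effects was 0.86 (SE 0.17, adjusted p = 4.35e-04), past the threshold. In siD3 #3 the level was 349 and 297 cpm in siControl and 388, 416 and 618 cpm in siTHUMPD3 (log2 fold change 0.55, SE 0.20, adjusted p = 0.0715).

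**Figure D3:**
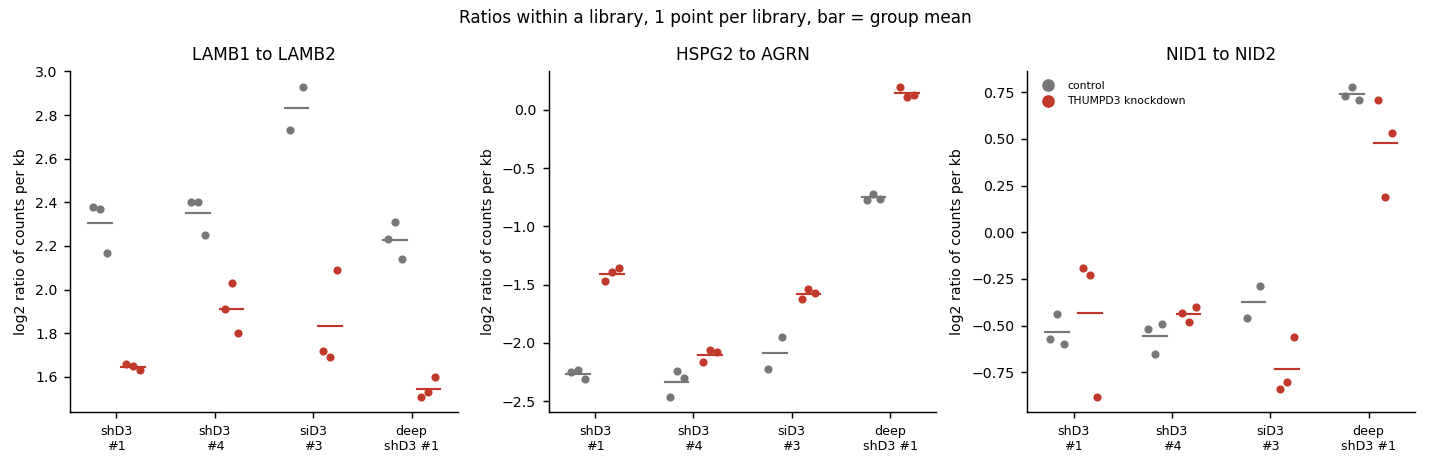
The log2 ratio of counts per kb of 2 genes in each library, for *LAMB1* to *LAMB2*, *HSPG2* to *AGRN* and *NID1* to *NID2*, with controls in grey and knockdown libraries in red; bars are group means. The first ratio is lower and the second higher in each knockdown library than in its controls in all 4 comparisons, with mean differences of -0.43 to -1.0 and of 0.23 to 0.89, while the third has no common direction.

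The nidogens were low and varied between libraries. *NID1* held 40 to 250 counts in a first library and was not called anywhere, its estimates on the log2 scale being -0.25 (shD3 #1), -0.38 (shD3 #4), 0.34 (siD3 #3) and 0.07 (deep shD3 #1). The estimate for siD3 #3 was carried by a single library. The library siTHUMPD3 replicate 3 held 12.4 cpm of *NID1* beside 5.001 and 5.20 cpm in replicates 1 and 2 and 5.61 and 6.32 cpm in siControl, and without it the log2 fold change was -0.24. The same library held 15.4 cpm of *NID2* beside 7.55 and 7.60 cpm, and 618 cpm of *LAMC1*, whose product nidogens bind. It was not the deepest library of its group, and THUMPD3 mRNA was 10.5 cpm there beside 11.6 and 12.4 cpm.

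*NID2* was not called either. In shD3 #4 it stood at 4.04, 4.72 and 5.42 cpm in controls and at 3.64, 2.75 and 3.56 cpm in the knockdown, with no overlap (log2 fold change -0.50, SE 0.16, adjusted p = 0.0126, edgeR). In shD3 #1 the first and the deep libraries gave opposite signs. The first gave -0.38 (SE 0.15, adjusted p = 0.0392), from 6.28, 6.44 and 6.60 cpm to 4.69, 4.26 and 6.31 cpm. The deep ones gave 0.33 (SE 0.10, adjusted p = 0.0112), from 6.14, 5.75 and 6.12 cpm to 6.62, 8.09 and 7.98 cpm. The 2 sets were not tested against each other. *NID2* shares 30.7% of its exon bases with *RTRAF* on the opposite strand, whose log2 fold change was 0.35 in the first and 0.17 in the deep libraries of shD3 #1, and the part of its reads in *NID2* was not tested. The effect of siD3 #3 minus the mean effect of the shRNAs was 1.09 for *NID2* (SE 0.30, adjusted p = 0.00921). It was 0.65 without siTHUMPD3 replicate 3, and 0.92 and no longer called without siControl replicate 2 (adjusted p = 0.0663). The *NID1* to *NID2* ratio differed by 0.10 (p = 0.8, exact permutation test) in shD3 #1, 0.12 (p = 0.1) in shD3 #4, -0.36 (p = 0.2) in siD3 #3 and -0.27 (p = 0.1) in the deep set.

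Perlecan mRNA had the largest fold change of the members other than *LAMA1* in shD3 #1, siD3 #3 and deep shD3 #1, but not in shD3 #4. *HSPG2* held 56.9, 57.8 and 59.6 cpm in sh1Control and 182, 183 and 139 cpm in shD3#1, which is 2.89-fold (log2 fold change 1.54, SE 0.09, adjusted p = 8.98e-10, edgeR). It held 69.5 and 45.4 cpm in siControl and 145, 133 and 156 cpm in siTHUMPD3, which is 2.52-fold (1.33, SE 0.18, adjusted p = 0.00114). In the deep libraries it rose from 652, 685 and 628 cpm to 1969, 1833 and 1660 cpm, which is 2.78-fold (1.47, SE 0.06, adjusted p = 5.79e-11). In none of these 3 comparisons did a knockdown library overlap a control. With shD3 #4 it held 43.9, 49.8 and 61.5 cpm in controls and 68.8, 54.2 and 67.9 cpm in the knockdown, which overlapped (0.30, SE 0.09, adjusted p = 0.0127, not called). The effect of shD3 #4 minus that of shD3 #1 was -1.23 (SE 0.20, adjusted p = 4.43e-05), with THUMPD3 mRNA at 31.4% of control in shD3 #4 and 51.3% in shD3 #1. *LDLRAD2*, which shares 11.7% of the *HSPG2* exon bases on the opposite strand, was removed by the filter on low counts in all 4 comparisons.

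Agrin mRNA shared that pattern at a smaller size. *AGRN* held 139, 139 and 151 cpm in sh1Control and 257, 245 and 183 cpm in shD3#1, a rise of 0.68 (SE 0.10, adjusted p = 1.85e-05, edgeR) with no overlap. In siD3 #3 the rise of 0.79 (SE 0.23, adjusted p = 0.0333) leaned on 1 control. The siControl libraries held 165 and 89.5 cpm and the siTHUMPD3 libraries 227, 198 and 236 cpm, and without siControl replicate 2 the log2 fold change was 0.41 (adjusted p = 0.0973). The call was also lost without siTHUMPD3 replicate 1 (0.78, adjusted p = 0.0668) or 2 (0.87, adjusted p = 0.0583). In the deep set *AGRN* went from 567, 575 and 545 cpm to 876, 870 and 773 cpm, a log2 fold change of 0.58 (SE 0.05, adjusted p = 2.31e-07) just under the threshold. With shD3 #4 it was 0.07 (SE 0.09, adjusted p = 0.560), and the difference between the shRNAs was -0.60 (SE 0.23, adjusted p = 0.0466). That call was lost with DESeq2 (adjusted p = 0.0879), with at least 10 counts in each sample (0.0560) and without any 1 of 9 libraries (adjusted p from 0.0529 to 0.136, edgeR). Within a library the ratio of *HSPG2* to *AGRN* was above all controls in each knockdown library of all 4 comparisons, by 0.86, 0.23, 0.51 and 0.89 on the log2 scale (exact permutation p = 0.1 in each). In the deep libraries it passed from 0.588 to 0.609 perlecan per agrin mRNA to 1.08 to 1.15, in counts per kb. In the first libraries of the same shRNA it passed from 0.202 to 0.213 to 0.361 to 0.389, so that agrin stayed the higher, and the deep table is the one in which *HSPG2* stood 11.3 times higher.

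**Figure D4:**
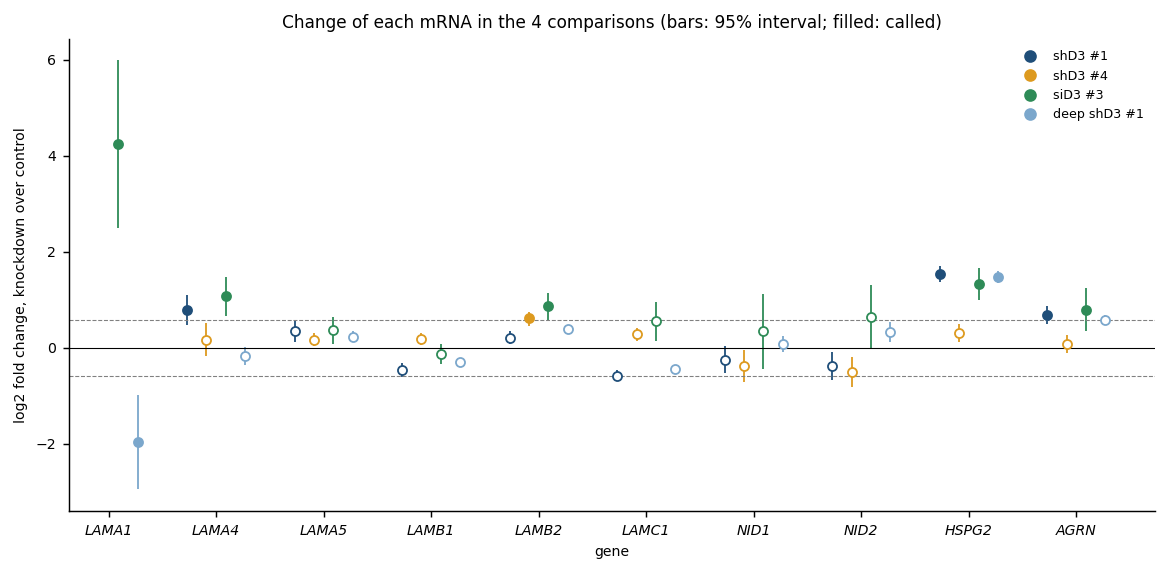
The log2 fold change of each gene, knockdown over control, in shD3 #1, shD3 #4, siD3 #3 and deep shD3 #1, with 95% intervals; filled points were called, and dashed lines mark a fold of 1.5 in either direction. *LAMA1* did not pass the filter on low counts in shD3 #1 and shD3 #4. *HSPG2* lies between 1.33 and 1.54 in 3 comparisons and at 0.30 in shD3 #4, while *LAMB1* and *LAMC1* lie below 0 in both sets of shD3 #1 and above 0 in shD3 #4.

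Differences between the effects of the knockdowns were tested in 1 model of the 17 first libraries. For shD3 #4 minus shD3 #1, 4 of 10 members passed the thresholds (*LAMB1*, *LAMC1*, *HSPG2* and *AGRN*), beside 25.9% of all genes. With a library left out the count was 3 to 5, and the call of *AGRN* was the least stable. The β1 and γ1 chains were on the positive side and both proteoglycans on the negative side. For siD3 #3 minus the mean of the shRNAs, 3 of 10 passed (*LAMA1* at 5.68, *LAMC1* at 0.71 and *NID2* at 1.09), beside 16.5% of all genes. The siRNA and the shRNAs also differed in the day of harvest and in the THUMPD3 mRNA left (17.1% of control in siD3 #3, 51.3% in shD3 #1 and 31.4% in shD3 #4). Delivery, day and depth of depletion thus cannot be told apart. Without siControl replicate 2 the count of members passing was 1, and without siControl replicate 1 it was 7. For *LAMC1* this difference was 0.46 without siTHUMPD3 replicate 3, under the threshold. That of *LAMA1* depends on the prior count, since the siControl libraries held 1 and 0 counts of it.

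The other genes of the basement membrane were taken from 6 lists holding 87 genes. Their counts stand against the shares of all genes given above, 14.5% higher and 14.6% lower in shD3 #1, 8.00% and 4.49% in shD3 #4, 12.5% and 9.42% in siD3 #3 and 15.0% and 14.1% in deep shD3 #1. Counts at an unadjusted p set no fold threshold, here and in the lists below, and the share of all genes at that p is not given. Among the remaining laminin chains and netrin-4, 5 of 7 tested were higher and 1 lower in shD3 #1, 1 and 2 in shD3 #4, 4 and 0 in siD3 #3 and 3 and 1 in deep shD3 #1. *LAMB3*, a chain of the laminin of skin and airway anchoring sites, rose from 20.4 ± 0.875 to 207 ± 7.33 cpm (SD, n = 3) in shD3 #1, a log2 fold change of 3.34, and it also rose in shD3 #4 (0.64), siD3 #3 (2.36) and deep shD3 #1 (3.19). *LAMC3*, a γ chain, was lower in shD3 #1 (-0.93), shD3 #4 (-0.66) and the deep set (-1.62). Beside the 0 lower in siD3 #3, 0 were lower at an unadjusted p under 0.05 and 0 with DESeq2.

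Of the collagens and other components, 6 of 14 were higher and 3 lower in shD3 #1, 7 and 0 of 14 in shD3 #4, 5 and 1 of 16 in siD3 #3 and 6 and 3 of 15 in deep shD3 #1. *COL4A6*, a collagen IV chain, rose from 42.8 ± 2.20 to 133 ± 1.47 cpm in shD3 #1 (1.64), by 0.65 in siD3 #3 and by 2.06 in the deep set. *NPNT*, an integrin ligand, was lower in shD3 #1 (-1.15) and the deep set (-1.12) but higher in shD3 #4 (0.67). Of the fibulins, *FBLN2* was lower in the deep set (-1.68), and *FBLN1* in shD3 #1 (-1.13), siD3 #3 (-0.73) and the deep set (-0.73). *HMCN1*, a hemicentin, rose in shD3 #4 by 1.38 and was lower in shD3 #1 (-1.13). The 5 higher in siD3 #3 include *COL15A1*, a collagen of the basement membrane zone, at 0.235 ± 0.255 cpm in controls and 2.21 ± 0.611 cpm in the knockdown. This gene passed the filter on low counts through the knockdown libraries, so that the filter favoured a difference. Beside the 0 lower in shD3 #4, 3 were lower at an unadjusted p under 0.05 and 1 with DESeq2.

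The list of receptors of laminin, agrin and perlecan also holds the collagen receptors *DDR1* and *DDR2*. Of its genes, 4 of 15 were higher and 2 lower in shD3 #1, 1 and 0 of 15 in shD3 #4, 6 and 0 of 15 in siD3 #3 and 4 and 1 of 14 in deep shD3 #1. *DDR1* was among those higher in shD3 #1 (1.08) and siD3 #3 (0.61). *ITGA2*, an integrin α chain for collagen and laminin, rose from 98.6 ± 4.70 to 462 ± 31.3 cpm in shD3 #1 (2.23), by 0.92 in siD3 #3 and by 1.95 in the deep set, and *ITGA1*, another collagen and laminin receptor chain, fell by 1.2 in shD3 #1 and 1.05 in the deep set. *ITGA7*, a laminin-binding α chain, rose in shD3 #4 (1.07) and siD3 #3 (1.03) and was lower in shD3 #1 (-0.75). *DDR2*, a collagen receptor kinase, rose in siD3 #3 (1.2). Beside the 0 lower receptors in shD3 #4 and siD3 #3, 2 and 0 were lower at an unadjusted p under 0.05, and 0 in both with DESeq2.

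The laminin-binding sugar of dystroglycan is built by 12 listed enzymes. In shD3 #1 and again in its deep set, 2 of them were higher and 0 lower, where 2 of 12 is close to the 14.5% and 15.0% of all genes. The counts were 1 higher and 2 lower for shD3 #4, and 0 higher and 1 lower for siD3 #3. *LARGE2*, a glycosyltransferase, was lower in shD3 #4 (-1.39) and in siD3 #3 (-1.48). At an unadjusted p under 0.05, 2 of these enzymes were lower in shD3 #1, 2 lower in deep shD3 #1 and 4 higher in siD3 #3, and DESeq2 called 0 in each case.

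Heparan sulfate, the sugar carried by perlecan and agrin, is made and trimmed by the genes of the next list. Of these, 3 of 18 were higher and 4 lower in shD3 #1, 0 and 1 of 19 in shD3 #4, 2 and 1 of 18 in siD3 #3 and 5 and 4 of 19 in deep shD3 #1. The shares higher in shD3 #1 and siD3 #3 were close to those of all genes. *EXTL3*, which starts the chain, rose by 0.89 in shD3 #1 and 0.63 in the deep set, and *FAM20B*, a kinase for the linker sugar, fell by 1.12 from 122 ± 8.94 cpm and by 0.60 in the deep set. *SULF2*, which removes sulfate outside the cell, rose from 59.4 ± 2.33 (n = 2) to 201 ± 25.8 cpm in siD3 #3 (1.76) and by 0.61 in the deep set. *GLCE*, the epimerase, was lower in siD3 #3 (-0.92) and shD3 #1 (-0.78). *HS3ST1*, a sulfotransferase, was lower in shD3 #4 (-0.60) and rose by 0.83 in shD3 #1 and 1.58 in the deep set. *HPSE*, the heparanase, fell by 0.80 in shD3 #1 and 1.17 in the deep set. Beside the 0 higher in shD3 #4, 6 were higher at an unadjusted p under 0.05 and 0 with DESeq2. Those 6 also had an adjusted p under 0.05 (edgeR) and missed only the fold threshold.

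The last list holds genes that crosslink, fold or cleave collagen IV and its neighbours, of which 5 of 11 were higher and 3 lower in shD3 #1, 1 and 1 of 11 in shD3 #4, 6 and 0 of 12 in siD3 #3 and 4 and 5 of 11 in deep shD3 #1. *PXDN*, the peroxidase that crosslinks collagen IV, rose by 2.46 in shD3 #1, 1.35 in siD3 #3 and 2.08 in the deep set. *CTSS*, a protease, fell by 1.91 in shD3 #1 and 0.93 in the deep set but rose by 0.83 in shD3 #4 and 1.31 in siD3 #3. *LOXL2*, a crosslinking oxidase, fell by 0.71 in shD3 #4, 0.80 in shD3 #1 and 0.82 in the deep set. *MMP2*, a gelatinase, rose by 2.95 in siD3 #3, from 1.66 ± 1.19 cpm (n = 2), and by 0.62 in shD3 #1, but fell by 0.88 in the deep set. Beside the 0 lower in siD3 #3, 0 were lower at an unadjusted p under 0.05 and 0 with DESeq2.

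**Figure D5:**
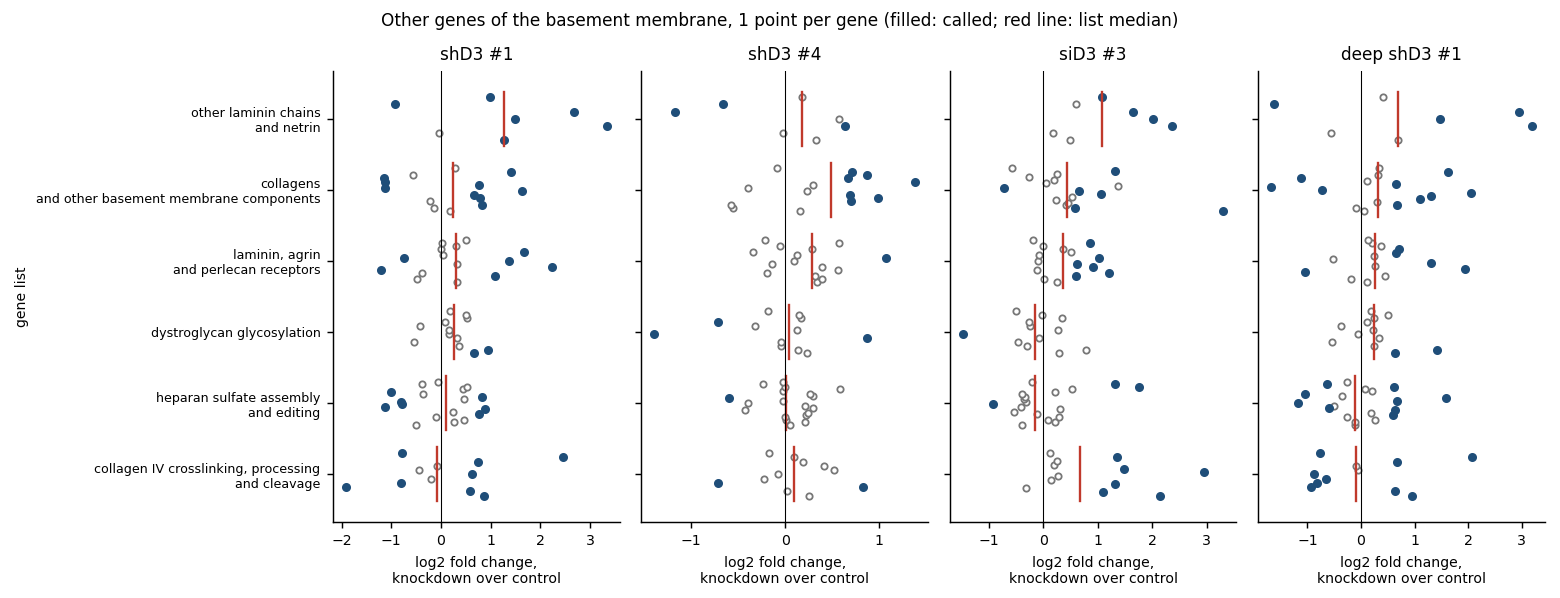
The log2 fold change, knockdown over control, of every tested gene of the 6 lists in the 4 comparisons; filled points were called, open points were not, and red lines are list medians. Other laminin chains have the highest list median in shD3 #1 (1.26), siD3 #3 (1.08) and deep shD3 #1 (0.70), and the heparan sulfate genes lie on both sides of 0 in shD3 #1 and deep shD3 #1.

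The genes whose 4 log2 fold changes were nearest to those of a member were sought among 13539 genes tested in all 4 comparisons, of which shD3 #1 and its deep set carry the same shRNA. For *HSPG2* they were *MAPRE3* (1.42, 0.17, 1.45 and 1.44 in the order shD3 #1, shD3 #4, siD3 #3, deep shD3 #1) and *PPM1K* (1.39, 0.44, 1.31 and 1.38), with root mean square differences of 0.108 and 0.111. For *AGRN* they were *TBC1D10A* (0.0371) and *ZNF275* (0.0418), for *LAMB2* *MBNL1-AS1* (0.0778) and *IQCN* (0.0814), and for *LAMA4* *EMILIN1* (0.151) and *PLD6* (0.162). None of these is another member. Among the members themselves the nearest pairs were *NID1* with *NID2* (0.218), *LAMA5* with *AGRN* (0.324), *LAMA5* with *LAMB2* (0.349) and *LAMB1* with *LAMC1* (0.358), and the most distant were *LAMB1* and *HSPG2* (1.52).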

How the data were processed

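Libraries were directional and depleted of rRNA. Per the submitters' processing notes and the methods, the authors used Trimmomatic 0.40 and STAR 2.7.10a on GRCh38.p14 and deposited counts per gene, not normalised. The methods name RefSeq, but the first table lists Ensembl identifiers (61757 matched GENCODE release 44, used here for positions and lengths) and the deep one symbols, so each annotation is uncertain. The strand counted is not given in the sources used here. No 2 of the 23 libraries were identical. Counts passed filterByExpr, were scaled by TMM and tested with edgeR 4.0.16 (R 4.3.3), each knockdown against its own controls, or all 17 first libraries in 1 model for differences between effects. P-values measure the spread between these libraries. Ratios had 0.5 added to each count. Intervals are 1.96 SE, and those of count ratios are exact and cover counting error only.

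The members and lists were chosen with earlier results of these data known. Named genes were the members, THUMPD3, the most changed called gene in each direction of each list and comparison, and the 2 nearest genes of each member called in at least 2 comparisons. Genes sharing exons with a member were named besides, and some genes under this rule are not reported here. Alternatives were DESeq2 1.42.0, its size factors, no filter on low counts but 1 count, a minimum of 10 counts in each sample, glmTreat, a log2 threshold of 1, all 17 libraries fitted together, a replicate block and each library left out. A GC adjustment (a curve per library on transcript GC, known for 84.5% to 100% of genes tested) was added after the data were seen. The tests were tried on simulated data with known changes. Plots used matplotlib 3.10.9 in python 3.11.15.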

Additional observations from a re-analysis of the deposited data

Results flagged for a closer look

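The effects of the knockdowns differed for 7 pairs of gene and comparison by the test of the difference itself, in the edgeR model of the 17 first libraries. Between the shRNAs, shD3 #4 minus shD3 #1, the log2 difference was 0.64 for *LAMB1* (95% interval 0.42 to 0.86), 0.86 for *LAMC1* (0.52 to 1.19), -1.23 for *HSPG2* (-1.62 to -0.85) and -0.60 for *AGRN* (-1.06 to -0.14). Between siD3 #3 and the mean of the shRNAs it was 5.68 for *LAMA1* (3.75 to 7.62), 0.71 for *LAMC1* (0.40 to 1.03) and 1.09 for *NID2* (0.50 to 1.68). The value for *LAMA1* depends on the prior count, since siControl held a single count of it. The call of *AGRN* was lost with DESeq2 (adjusted p = 0.0879) and without any 1 of 9 libraries. *LAMC1* between siRNA and shRNAs was 0.46 without siTHUMPD3 replicate 3 and 0.58 without siControl replicate 2, under the fold threshold. *NID2* was 0.65 without the former and not called without the latter (adjusted p = 0.0663), and *LAMB1* was 0.56 without shD3#1 replicate 3.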

How the results depend on the processing

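For single members, 931 of the alternative values kept direction and call, 35 lost the call, 27 gained it and 11 changed sign. In shD3 #1 the count of members lower was 0 as reported. It was 1 with DESeq2 (*LAMA1*) and 1 with at least 10 counts in every sample (*LAMC1* at -0.59). It was 2 without the filter and 2 in 1 fit of all 17 libraries, and 0 to 1 with a library left out. The count higher, 3, was 1 with glmTreat and 1 at a log2 threshold of 1. In shD3 #4 the count higher, 1, was 0 with glmTreat and 0 at a threshold of 1, and with a library left out it was 0 to 1 and the count lower 0 to 1. In siD3 #3 the count higher, 5, was 2 with glmTreat, 3 at a threshold of 1 and 3 to 6 with a library left out. In deep shD3 #1 the count higher, 1, was 2 with DESeq2 size factors, through *AGRN* at 0.59, and 1 to 2 with a library left out, and the count lower, 1, was 0 with at least 10 counts in every sample, which removes *LAMA1*. The count differing between siD3 #3 and the shRNAs, 3, was 1 to 7 with a library left out, and the *NID1* to *NID2* difference in shD3 #1, 0.10, was -0.019 to 0.324.

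Estimates near 0 changed sign. With a library left out, *AGRN* in shD3 #4 was -0.02 to 0.19 and *NID1* in siD3 #3 -0.24 to 0.58. For shD3 #4 minus shD3 #1, *NID2* was -0.25 to 0.02 and *NID1* -0.22 to 0.01. For siD3 #3 minus the shRNAs, *LAMA5* was -0.14 to 0.38 and *LAMB1* -0.08 to 0.10, and *LAMB1* was -0.01 without the filter. Same-numbered libraries did not deviate together (correlations from -0.11 to 0.14), so the numbers were not taken to pair them. With the replicate block, in which siTHUMPD3 replicate 3 has no paired control and carries no weight, *NID1* in siD3 #3 was -0.23, and for siD3 #3 minus the shRNAs *LAMB1* was 0.00, *LAMC1* 0.48 (no longer called) and *LAMA4* 0.65 (called). The call of *AGRN* between the shRNAs was lost with the GC adjustment (-0.53, adjusted p = 0.0519), DESeq2 (-0.63, 0.0879), at least 10 counts in each sample (-0.58, 0.0560) and without any 1 of 9 libraries. The GC adjustment changed no other member's call. With counts under 30 a library for *LAMA1*, changes of it are measured with little precision. The causes of these shifts were not tested.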
